A study of Rattus norvegicus with 28 samples.

Results

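The 5 genes described here mark microglia and other leukocytes: Aif1, Itgam, Ptprc, Cd68 and Cd74. Their rows were taken by Ensembl identifier, in that order ENSRNOG00000000853, ENSRNOG00000019728, ENSRNOG00000000655, ENSRNOG00000037563 and ENSRNOG00000018735. They make up 5 of the 32545 genes in the deposited count table, and all 5 passed the filter on low counts, which kept 14282 genes. The study profiled total RNA in 28 rat samples, all labelled neural progenitor cells, and its title concerns the transplantation of such cells into injured spinal cord. Cells in culture make up 1 group of 4 libraries. The remaining 6 groups, also of 4 libraries each, were exposed to injured spinal cord, or to spinal cord with no mention of injury (called uninjured here), for a labelled 2, 3 or 4 weeks. No source used here gives the genotype, strain, age, manner of exposure, event from which weeks are counted or any separation of cells from surrounding tissue. The labels do not tie libraries to animals or cultures, so p-values reflect no more than how far these samples differ, and that spread may be technical.

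Microglia are the resident phagocytes of the brain and spinal cord, and after cord injury they are joined by monocytes, macrophages and other leukocytes that enter from the blood. Neural progenitor cells belong to another lineage and are not a classical source of RNA from these genes. Aif1 encodes Iba1, an actin-binding calcium-sensing protein used to stain microglia and macrophages. Itgam encodes CD11b, the alpha chain of complement receptor 3, a myeloid integrin for adhesion and the uptake of complement-coated particles. Ptprc encodes CD45, the receptor tyrosine phosphatase carried by nearly all nucleated blood cells, which sets the threshold of antigen receptor signalling. Cd68 encodes a heavily glycosylated protein of lysosomes and endosomes, abundant in phagocytes that are degrading material. Cd74 encodes the invariant chain, which escorts MHC class II molecules to the compartment where they are loaded with peptide.

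Library totals ran from 2605188 to 6908508 counts in culture and at weeks 3 and 4, but only from 84532 to 446331 at week 2, so low depth and week 2 coincide. Week 2 values of single genes therefore rest on few counts. Zeros were found in injured week 3 replicate 3 for 2755 of 9636 genes in which at least 20 counts would follow from the lowest share among the other libraries of the group. The 5 marker genes were not among its zeros, with 299 counts for Aif1, 186 for Itgam, 146 for Ptprc, 231 for Cd68 and 42 for Cd74. It was left out of the fit and of the group means below, which for injured week 3 rest on 3 libraries. The marker lists for neural progenitors and other cell types could not be applied, because the files and the reference table do not pair the identifiers with symbols. The label of the cells was therefore not checked against their own markers.

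The stretches of DNA just before the start of 3 of these genes are shown because the transcription factor PU.1, which is required for myeloid cells, recognises a GAGGAA core. The sequences are from RefSeq, build GRCr8, written 5′ to 3′ on the strand of the gene and cut where the annotated gene begins. Capitals mark GAGGAA, or TTCCTC where the core lies on the opposite strand.
Itgam (chr1:192089342-192089495, plus strand): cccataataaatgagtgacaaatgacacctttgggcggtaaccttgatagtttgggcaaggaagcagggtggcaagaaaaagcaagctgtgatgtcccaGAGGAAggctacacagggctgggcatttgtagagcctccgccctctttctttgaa
Ptprc (chr13:52259811-52259996, minus strand): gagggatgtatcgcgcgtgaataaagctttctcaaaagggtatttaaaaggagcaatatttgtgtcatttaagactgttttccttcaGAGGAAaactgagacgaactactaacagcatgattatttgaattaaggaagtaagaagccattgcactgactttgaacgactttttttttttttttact
Cd68 (chr10:54882442-54882691, minus strand): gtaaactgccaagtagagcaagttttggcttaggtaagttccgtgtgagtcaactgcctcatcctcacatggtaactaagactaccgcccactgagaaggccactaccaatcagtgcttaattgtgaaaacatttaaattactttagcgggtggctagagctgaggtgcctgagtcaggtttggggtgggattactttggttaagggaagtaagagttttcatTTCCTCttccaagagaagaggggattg
Promoters of 4 of the 5 genes were matched by symbol, Cd74 in addition to these. GAGGAA was searched on both strands over the 250 bases before the start in the promoter table and was found in all 4. For Itgam and Ptprc this window runs past the 154 and 186 bases shown, into the annotated gene. A second Itgam match, on the opposite strand and 39 bases before the start in the table, lies in the part not shown. The same letters occurred in 23.3% of 33469 promoters of that length. The longer PU.1 core GAGGAAGT, which contains GAGGAA, was in 0 of the 4 and in 2.04% of all promoters. CCAAT, the core of the Y box of MHC class II promoters, was in those of Cd68 and Cd74 and in 34% of all promoters. A consensus of the X1 box was in 0 of the 4 and in 14.1% of all. These matches describe letters only and do not show that a factor binds.

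Together the 5 genes were scarce in culture, abundant after exposure to uninjured cord, and low then high in injured cord between weeks 3 and 4. Their summed level was 39.8 to 53.2 CPM (counts per 1000000 of the library total, scaled by TMM factors) in the 4 culture libraries. It was 928 to 1493 CPM in uninjured week 3 and 612 to 1316 CPM in uninjured week 4. In injured week 3 it was only 82.4 to 153 CPM over 3 libraries, below every uninjured library of any week, and in injured week 4 it was 1287 to 1660 CPM. The week 2 groups held 241 to 774 CPM uninjured and 318 to 808 CPM injured. Cd68 departed from the summed pattern, with means of 15.2 CPM in culture, 45.6 CPM in uninjured week 3 and 36.0 CPM in injured week 3. In bulk RNA, fewer cells of a type and less RNA per cell cannot be told apart. Whether this RNA came from cells of the host or from the labelled cells was not tested.

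**Figure D1:**
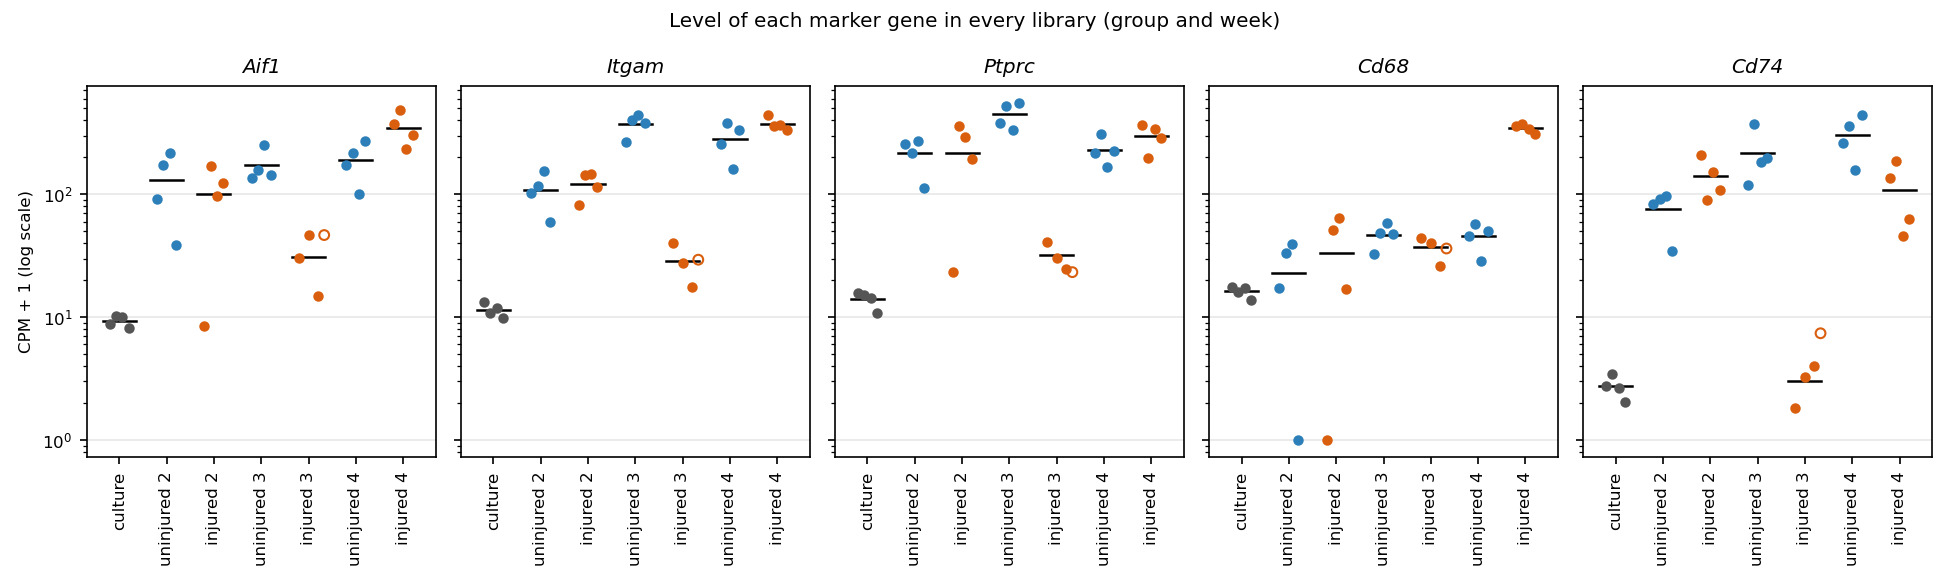
CPM plus 1 of each gene on a log axis, with 1 point per library, black bars for group means and the week after each group name. The open circle is injured week 3 replicate 3, which is outside the means and scaled in a fit of all 28 libraries. Injured week 3 lies below uninjured week 3 for Aif1, Itgam, Ptprc and Cd74, and Cd68 is high in injured week 4 alone.

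Aif1, the Iba1 gene, was detected in all 28 libraries. In culture it stood at 7.82, 9.16, 9.09 and 7.19 CPM. In uninjured cord it stood at 89.8, 173, 217 and 37.4 CPM at week 2, at 135, 156, 252 and 143 CPM at week 3 and at 172, 217, 99.5 and 269.7 CPM at week 4. Every uninjured library was above every culture library. In injured cord the libraries held 7.40, 169, 96.5 and 123.2 CPM at week 2, 29.4, 45.6 and 13.8 CPM at week 3 and 369.8, 481, 230.1 and 299.6 CPM at week 4. The 7.40 CPM at week 2 is 1 count in the shallowest library, which overlaps with culture, and the 3 week 3 libraries lay between culture and uninjured week 3 without touching either. Ordered by mean, culture (8.32 ± 0.970 CPM, SD, n = 4) was lowest, followed by injured week 3 (29.6 ± 15.9 CPM, SD, n = 3), whose libraries did not overlap with culture. Injured week 2, uninjured week 2, uninjured week 3, uninjured week 4 and injured week 4 followed in that order, and each of these neighbours overlapped with the next. Injured week 4 had the highest mean, 345 CPM over libraries at 230.1 to 481 CPM, against 189 ± 72.2 CPM (SD, n = 4) in uninjured week 4.

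Itgam, the CD11b gene, had a smaller SD relative to its mean than Aif1 in every group but culture. In culture it stood at 12.3, 9.74, 10.9 and 8.80 CPM. In uninjured cord it stood at 102.1, 115.1, 155 and 58.2 CPM at week 2, at 267, 404, 437 and 378 CPM at week 3 and at 256, 377, 159.5 and 329.8 CPM at week 4. All 12 uninjured libraries exceeded all culture libraries, and all week 4 libraries exceeded all week 2 libraries. In injured cord the libraries held 81.4, 142, 144 and 112.5 CPM at week 2, 39.2, 26.7 and 16.5 CPM at week 3 and 438, 361, 364 and 334 CPM at week 4. The week 3 libraries were the lowest of the injured ones, with none reaching the week 2 or week 4 range. The order by mean was culture (10.4 ± 1.5 CPM, SD, n = 4), injured week 3 (27.5 ± 11.4 CPM, SD, n = 3), uninjured week 2, injured week 2, uninjured week 4, uninjured week 3 (372 ± 73.6 CPM, SD, n = 4) and injured week 4 (374 ± 44.5 CPM, SD, n = 4). The order of the last 2 turns with the scaling, uninjured week 3 and injured week 4 having means of 353.2 and 351.7 CPM scaled with all 28 libraries and of 358.5 and 307.5 CPM per plain library total. The 2 week 2 groups overlapped, as did the 3 groups at the top. The other neighbours in the order did not overlap.

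Ptprc, the CD45 gene, had its highest group mean in uninjured week 3. In culture it stood at 14.6, 14.1, 13.3 and 9.83 CPM. In uninjured cord it stood at 257, 216, 269 and 112.3 CPM at week 2, at 377, 517, 333 and 552 CPM at week 3 and at 215, 306, 167 and 225 CPM at week 4. The week 3 libraries were all above those of week 4. In injured cord the libraries held 22.2, 358, 289.5 and 193 CPM at week 2, 39.5, 29.6 and 23.8 CPM at week 3 and 363, 196, 339.7 and 284 CPM at week 4. The 22.2 CPM at week 2 comes from 3 counts, and without that library week 2 was well above week 3. Culture was lowest by mean (12.9 ± 2.15 CPM, SD, n = 4). Injured week 3 (30.9 ± 7.98 CPM, SD, n = 3) and uninjured week 2 (214 ± 71.3 CPM, SD, n = 4) followed, each separate from the group below it. From uninjured week 2 upward, through injured week 2, uninjured week 4 (228 ± 57.7 CPM, SD, n = 4), injured week 4 (296 ± 74.3 CPM, SD, n = 4) and uninjured week 3 (445 ± 106.5 CPM, SD, n = 4), each group overlapped with the next.

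Cd68, the lysosomal gene, was highest in injured week 4. In culture it stood at 16.7, 14.9, 16.4 and 12.9 CPM. In uninjured cord it stood at 16.3, 32.4, 38.1 and 0 CPM at week 2, at 31.4, 47.4, 57.1 and 46.4 CPM at week 3 and at 44.8, 56.1, 27.8 and 49.1 CPM at week 4. The library at 0 had 0 of 205441 counts, which allows up to 14.6 CPM per plain library total. On the TMM scale that floor is lower, the factor of the library being 1.17. Uninjured cord reached at most 57.1 CPM. In injured cord the libraries held 0, 49.7, 63.7 and 16.1 CPM at week 2, 43.5, 39.4 and 25.3 CPM at week 3 and 355, 369, 341 and 308 CPM at week 4. The zero at week 2 was 0 of 84532 counts, which allows up to 35.5 CPM per plain library total, or 22.2 CPM on the TMM scale. The lowest week 4 library was far above the highest week 2 or week 3 library. The mean was 15.2 ± 1.73 CPM (SD, n = 4) in culture, followed by uninjured week 2, injured week 2, injured week 3 (36.0 ± 9.55 CPM, SD, n = 3), uninjured week 4 (44.4 ± 12 CPM, SD, n = 4) and uninjured week 3 (45.6 ± 10.6 CPM, SD, n = 4), each overlapping with its neighbour. Injured week 4, at 343 ± 26.3 CPM (SD, n = 4), stood clear above all of them.

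Cd74, the invariant chain gene, had the largest ratio of the 5 between its highest and lowest group means. In culture it stood at 1.78, 2.48, 1.64 and 1.03 CPM. In uninjured cord it stood at 81.7, 89.9, 95.2 and 33.3 CPM at week 2, at 116.9, 368, 183 and 198 CPM at week 3 and at 259.5, 359, 158 and 443 CPM at week 4. The culture values rest on 7 to 13 counts a library. In injured cord the libraries held 207, 89.5, 149.9 and 107.1 CPM at week 2, 0.841, 2.25 and 3.01 CPM at week 3 and 134, 187, 44.9 and 62.2 CPM at week 4. The 3 week 3 libraries held 3, 8 and 10 counts, as low as culture, whereas all week 2 and week 4 libraries were above every culture library. By mean, culture (1.73 ± 0.598 CPM, SD, n = 4) and injured week 3 (2.03 ± 1.10 CPM, SD, n = 3) were lowest and overlapped, and no library of the next group, uninjured week 2, came near them. Injured week 4, injured week 2, uninjured week 3 (217 ± 107.1 CPM, SD, n = 4) and uninjured week 4 (305 ± 123.4 CPM, SD, n = 4) followed, each overlapping with the next.

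In injured week 3 replicate 3, scaled together with all 28 libraries, Aif1 stood at 45.6 CPM, Itgam at 28.3 CPM, Ptprc at 22.2 CPM, Cd68 at 35.2 CPM and Cd74 at 6.40 CPM. On that scale Aif1, Itgam and Cd68 lay within the range of the other 3 libraries of the group, Ptprc below it and Cd74 above it. Per plain library total, Aif1, Itgam, Cd68 and Cd74 were above that range, at 82.7, 51.5, 63.9 and 11.6 CPM, and Ptprc equalled its upper end at 40.4 CPM. The library stayed below every uninjured week 3 library for Aif1, Itgam, Ptprc and Cd74 on both scales.

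Each exposed group was set against culture to ask how far exposure to cord changed the level of these genes. The test was edgeR's quasi-likelihood test on 27 libraries without injured week 3 replicate 3, with Benjamini-Hochberg adjustment over 14282 genes and a call at an adjusted p under 0.05, and fold changes are given with their standard error (SE). In uninjured cord all 5 genes rose at weeks 3 and 4, where 26% and 26.3% of all genes tested were called higher. At uninjured week 2, 4 of 5 rose, against 20% of all genes called higher. In injured cord 5 of 5 rose at week 2, 4 of 5 at week 3 and 5 of 5 at week 4, against 19.3%, 9.19% and 18.1% of all genes. These comparisons share the 4 culture libraries. The median log2 fold change of the 5 genes was 5.10 at uninjured week 3 and 4.51 at uninjured week 4, where the medians over all genes tested were 0.00792 and 0.0524. In injured week 3 it was 1.26, and the median over all genes was 0.

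Cd74 rose most, by a log2 fold change of 7.45 ± 0.49 SE (edgeR adjusted p = 1.87e-16) in uninjured week 4. Itgam rose by 5.15 ± 0.32 SE (edgeR adjusted p = 7.06e-18) in uninjured week 3, and by 5.16 ± 0.32 SE (edgeR adjusted p = 1.46e-17) in injured week 4. Ptprc rose by 5.10 ± 0.38 SE (edgeR adjusted p = 2.03e-15) in uninjured week 3. In culture Itgam, Ptprc and Cd74 had at most 14.6 CPM. Aif1 rose by 5.37 ± 0.45 SE (edgeR adjusted p = 1.17e-12) in injured week 4 and by 4.51 ± 0.44 SE (edgeR adjusted p = 3.4e-11) in uninjured week 4. Cd68 rose by 1.57 ± 0.33 SE (edgeR adjusted p = 9.71e-05) in uninjured week 3, and by 4.49 ± 0.36 SE (edgeR adjusted p = 3.35e-14) in injured week 4. At uninjured week 2 its log2 fold change was 0.64 ± 0.48 SE (edgeR adjusted p = 0.289), from 29 counts over the group.

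Injured week 3 was the exposed group nearest to culture for Aif1, Itgam, Ptprc and Cd74. It also had the fewest calls against culture over all genes. In either direction 19.2% were called there, and 33.6% to 49.9% in the other exposed groups. The log2 fold change of injured week 3 over culture was 1.83 ± 0.44 SE (edgeR adjusted p = 0.00169) for Aif1. It was 1.40 ± 0.31 SE (edgeR adjusted p = 0.000576) for Itgam and 1.26 ± 0.36 SE (edgeR adjusted p = 0.0095) for Ptprc. Cd68 rose by a similar 1.24 ± 0.35 SE (edgeR adjusted p = 0.00786). For Cd74 it was 0.24 ± 0.65 SE (edgeR adjusted p = 0.868), with a 95% interval of -1.07 to 1.55. With injured week 3 replicate 3 included, 2 of the 5 genes were called, Ptprc and Cd68 having adjusted p-values of 0.0702 and 0.0954. In that fit 13.2% of all genes were called in either direction. Without injured week 3 replicate 1, 2 of 5 were called as well, Ptprc and Cd68 having edgeR adjusted p-values of 0.0871 and 0.0645. The Cd68 call at injured week 2 was 1.33 ± 0.41 SE (edgeR adjusted p = 0.00803) as a log2 fold change. It was lost with all 28 libraries (adjusted p = 0.0562), without injured week 2 replicate 3 (log2 fold change 0.82, adjusted p = 0.179), and with only these groups fitted (adjusted p = 0.0695).

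**Figure D2:**
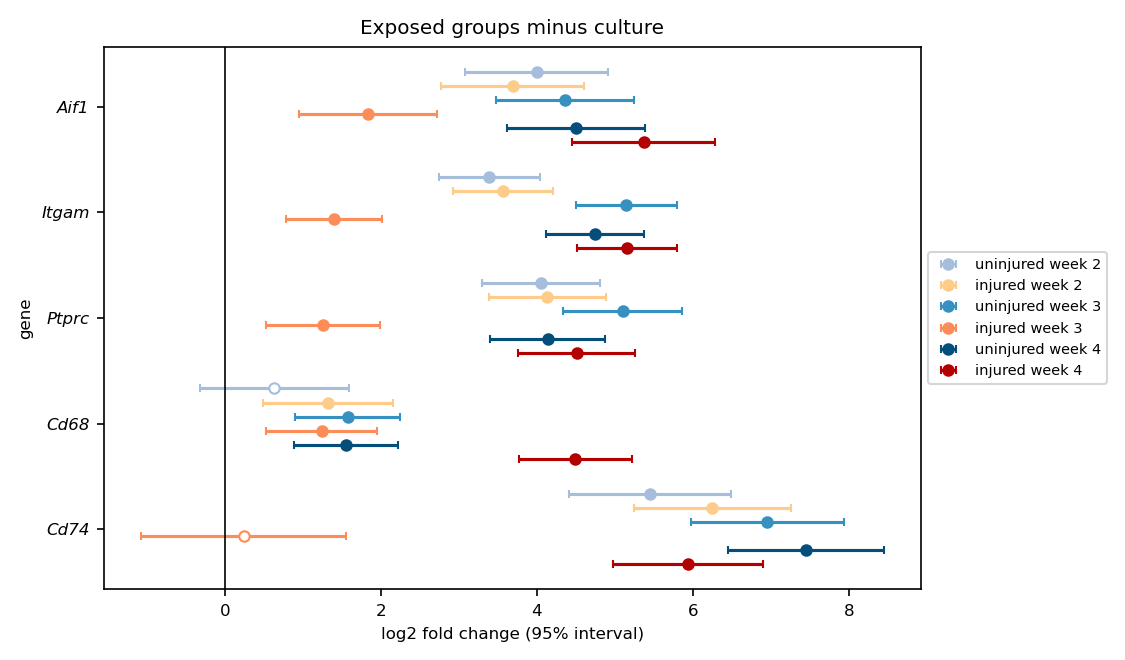
Log2 fold change over culture (horizontal axis) of each gene in the 6 exposed groups, with 95% intervals that are not adjusted for multiple tests. Filled points passed an adjusted p of 0.05, and open points did not. Injured week 3 is the group nearest to culture for Aif1, Itgam, Ptprc and Cd74, and for Cd68 injured week 4 stands apart at 4.49.

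Injured was then compared with uninjured cord at each week, to ask how injury changed these genes. At week 3, 4 of 5 genes fell in injured cord, where 25.3% of all genes were called lower. The median log2 fold change of the 5 was -3.75, and that of all genes 0.00703. Of all calls, 45% were higher in injured cord, and 55.6% with RLE factors. Cd74 fell from 217 ± 107.1 CPM (SD, n = 4) to 2.03 ± 1.10 CPM (SD, n = 3), a log2 fold change of -6.71 ± 0.57 SE (edgeR adjusted p = 2.87e-13). Ptprc fell from 445 ± 106.5 CPM (SD, n = 4) to 30.9 ± 7.98 CPM (SD, n = 3), a log2 fold change of -3.84 ± 0.40 SE (edgeR adjusted p = 6.48e-11). The libraries of the 2 groups did not overlap for Aif1, Itgam, Ptprc or Cd74. The share of all genes without overlap was not determined. Itgam fell with a log2 fold change of -3.75 ± 0.34 SE (edgeR adjusted p = 8.51e-13) and Aif1 with -2.53 ± 0.44 SE (edgeR adjusted p = 9.04e-06). Cd68, at 45.6 ± 10.6 CPM (SD, n = 4) and 36.0 ± 9.55 CPM (SD, n = 3), had a log2 fold change of -0.33 ± 0.35 SE (edgeR adjusted p = 0.472), with a 95% interval of -1.04 to 0.38. The 4 calls held with each library of these groups left out in turn and under each alternative setting.

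At week 4, Cd68 rose in injured cord, from 44.4 ± 12 CPM (SD, n = 4) to 343 ± 26.3 CPM (SD, n = 4), a log2 fold change of 2.94 ± 0.33 SE (edgeR adjusted p = 1.33e-09). Cd74 fell, from 158 to 443 CPM in the 4 uninjured libraries to 44.9 to 187 CPM in the 4 injured ones, a log2 fold change of -1.51 ± 0.36 SE (edgeR adjusted p = 0.000906). The Cd68 libraries of the 2 groups lay far apart, while the Cd74 libraries overlapped, since the highest injured one (187 CPM) exceeded the lowest uninjured one (158 CPM). Thus 2 of 5 genes were called, 1 each way, where 12.1% of all genes were called higher and 15.2% lower. The median log2 fold change was 0.41 for the 5 genes and 0.00695 for all genes. Aif1 had a log2 fold change of 0.86 ± 0.37 SE (edgeR adjusted p = 0.0801). It passed the test with no filter on low counts (adjusted p = 0.0211), without the week 2 libraries in the fit (0.0199), with only these groups fitted (0.0282) and without uninjured week 4 replicate 4 (0.0442). Calls in either direction made up 27.3% of all genes in the main fit. They made up 15.8% with no filter, 46.1% without week 2 and 40.5% with only these groups. Itgam and Ptprc had 0.41 ± 0.26 SE (edgeR adjusted p = 0.262) and 0.37 ± 0.32 SE (edgeR adjusted p = 0.426), with 95% intervals of -0.11 to 0.94 and -0.26 to 1.01.

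At week 2, 0 of 5 genes were called by edgeR, where 3.37% of all genes were called in either direction. DESeq2 also called 0 of 5, where it called 12% of all genes. An unadjusted edgeR p under 0.05 was found for 0 of 5, and for 2911 of the 14282 genes tested. The log2 fold changes ran from -0.30 for Aif1 (95% interval -1.19 to 0.58) to 0.79 for Cd74 (95% interval -0.09 to 1.67). Differences of the size of the Aif1, Itgam, Ptprc and Cd74 changes of week 3 lie outside the week 2 intervals. The Cd68 interval at week 2, -0.35 to 1.73, does not reach the Cd68 change seen at week 4, 2.94. It rests on 57 counts in injured and 29 in uninjured libraries.

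**Figure D3:**
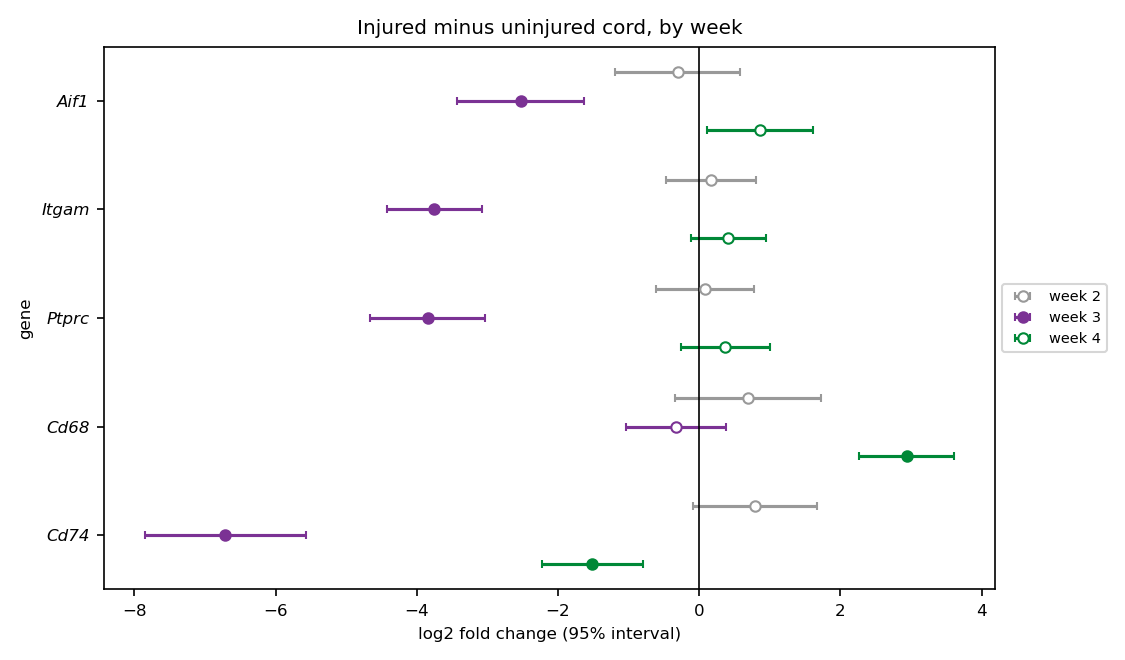
Log2 fold change of injured over uninjured cord (horizontal axis) for each gene at weeks 2, 3 and 4, with unadjusted 95% intervals. Filled points passed an adjusted p of 0.05. Week 3 points of Aif1, Itgam, Ptprc and Cd74 lie at -2.53 or lower, and the week 4 point of Cd68 lies at 2.94.

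The effect of injury itself differed between weeks 3 and 4 for all 5 genes, each in the direction of a more positive effect at week 4. Of all genes, 11.5% were called in that direction. The difference in log2 fold change, week 4 minus week 3, was 5.20 ± 0.64 SE (edgeR adjusted p = 4.05e-08) for Cd74 and 3.39 ± 0.57 SE (edgeR adjusted p = 1.89e-05) for Aif1. It was 4.16 ± 0.42 SE (edgeR adjusted p = 4.97e-10) for Itgam, 4.21 ± 0.50 SE (edgeR adjusted p = 1.26e-08) for Ptprc and 3.27 ± 0.49 SE (edgeR adjusted p = 1.12e-06) for Cd68. Of all calls, 61.2% were in that direction, and 49.2% with RLE factors. All 5 calls held under each alternative setting and with each of the 15 libraries left out in turn. At week 4 itself, only Cd68 was called higher in injured cord in the main fit. Cd74 was still called lower there, with a log2 fold change of -1.51.

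The weeks were also compared within each condition, from the same libraries. In uninjured cord, 0 of 5 genes were called between weeks 3 and 4, where 0.525% of all genes were called in either direction. Ptprc had an unadjusted p of 0.00412 there, with a log2 fold change of -0.96 ± 0.32 SE (edgeR adjusted p = 0.141), and it passed in 3 other fits: without a filter on low counts (0.0411), without week 2 (0.00865) and with only these groups (0.0428). Those fits called 1.44%, 11.9% and 3.71% of all genes in either direction, in that order. DESeq2 called 0 of 5, where it called 6.57% of all genes. In injured cord all 5 genes rose from week 3 to week 4, where 13.8% of all genes were called higher. Cd74 rose by 5.70 ± 0.55 SE (edgeR adjusted p = 1.22e-10), Itgam by 3.76 ± 0.34 SE (edgeR adjusted p = 1.9e-11) and Aif1 by 3.54 ± 0.46 SE (edgeR adjusted p = 1.35e-07). Ptprc and Cd68 rose by 3.25 ± 0.39 SE (edgeR adjusted p = 1.04e-08) and 3.25 ± 0.38 SE (edgeR adjusted p = 5.45e-09). Over all genes 63.9% of the calls were higher, and 52.1% with RLE factors. The libraries of these injured groups did not overlap for any of the 5 genes. How many of all genes separated in the same way was not counted.

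From week 2 to week 3, Aif1, Itgam, Ptprc and Cd74 were lower in injured cord, and Itgam, Ptprc and Cd74 were higher in uninjured cord. In injured cord 4 of 5 genes fell, where 20% of all genes were called lower. Cd74 fell with a log2 fold change of -6.01 ± 0.57 SE (edgeR adjusted p = 2.72e-11) and Ptprc with -2.88 ± 0.40 SE (edgeR adjusted p = 1.13e-07). Itgam and Aif1 fell with -2.16 ± 0.33 SE (edgeR adjusted p = 9.94e-07) and -1.86 ± 0.46 SE (edgeR adjusted p = 0.00131). Cd68 had -0.08 ± 0.42 SE (edgeR adjusted p = 0.895). In uninjured cord 3 of 5 rose, Itgam by 1.76 ± 0.29 SE (edgeR adjusted p = 4.89e-05), Ptprc by 1.05 ± 0.34 SE (edgeR adjusted p = 0.0224) and Cd74 by 1.5 ± 0.41 SE (edgeR adjusted p = 0.0075), where 12.2% of all genes were called higher. The Itgam rise held in every fit run, but those of Ptprc and Cd74 were lost with RLE factors, which moved the median of all genes by -0.41 in that comparison, with DESeq2, with all 28 libraries and with only these groups fitted. The adjusted p-values of Ptprc and Cd74 with RLE factors were 0.172 and 0.0879 in edgeR. Over all genes the share of calls that were higher was 60%, and 27.4% with RLE factors. The Ptprc call was also lost without uninjured week 2 replicate 1, 3 or 4 or uninjured week 3 replicate 1, 2 or 4, with adjusted p-values of 0.0541 to 0.183. The Cd74 call was lost without uninjured week 2 replicate 4 (0.0829) or uninjured week 3 replicate 2 (0.099). The median over all genes was 0.297 in uninjured cord and 0.299 in injured cord for week 3 over week 2, so the rises in uninjured cord are smaller relative to it and the falls in injured cord larger. Depth differs between these weeks as well, and its part in the result was not tested. Whether the change from week 2 to week 3 differed between conditions was not tested.

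Ratios of counts within a library do not depend on how libraries are scaled. They show that Cd68 and Cd74 did not change in proportion to Aif1, nor did Itgam in uninjured week 3. The ratio itself depends on gene length, so only its change between groups is of interest. Cd68 counts per Aif1 count were 1.62 to 2.14 in culture. The injured libraries had 0.864 to 1.83 at week 3 and 0.767 to 1.48 at week 4. In uninjured cord they were 0.226 to 0.324 at week 3 and 0.182 to 0.279 at week 4, with no overlap with culture or with either injured group. Cd74 counts per Aif1 count ran the other way. They were 0.726 to 2.36 in uninjured week 3 and 1.51 to 1.65 in uninjured week 4. In culture they were 0.143 to 0.271. The injured libraries had 0.0286 to 0.217 at week 3 and 0.195 to 0.389 at week 4. Injured week 4 held more Cd68 and less Cd74 per Aif1 count than uninjured week 4 in every library. In injured week 3 replicate 3 these ratios were 0.773 for Cd68 and 0.14 for Cd74, on the side of the injured groups. Itgam counts per Aif1 count were 1.73 to 2.63 in uninjured week 3, with no overlap with culture (1.06 to 1.57), injured week 3 (0.586 to 1.33) or injured week 4 (0.75 to 1.58). In uninjured week 4 they were 1.22 to 1.74, which overlapped with each of these groups. Ptprc counts per Aif1 count were 1.32 to 3.85 in uninjured week 3 and overlapped with those of culture (1.37 to 1.86), injured week 3 (0.648 to 1.72) and injured week 4 (0.407 to 1.48). The overlap came from the library at 1.32, the others of uninjured week 3 having 2.8, 3.32 and 3.85. Week 2 ratios are not interpreted, since 1 library had 1 count of Aif1.

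**Figure D4:**
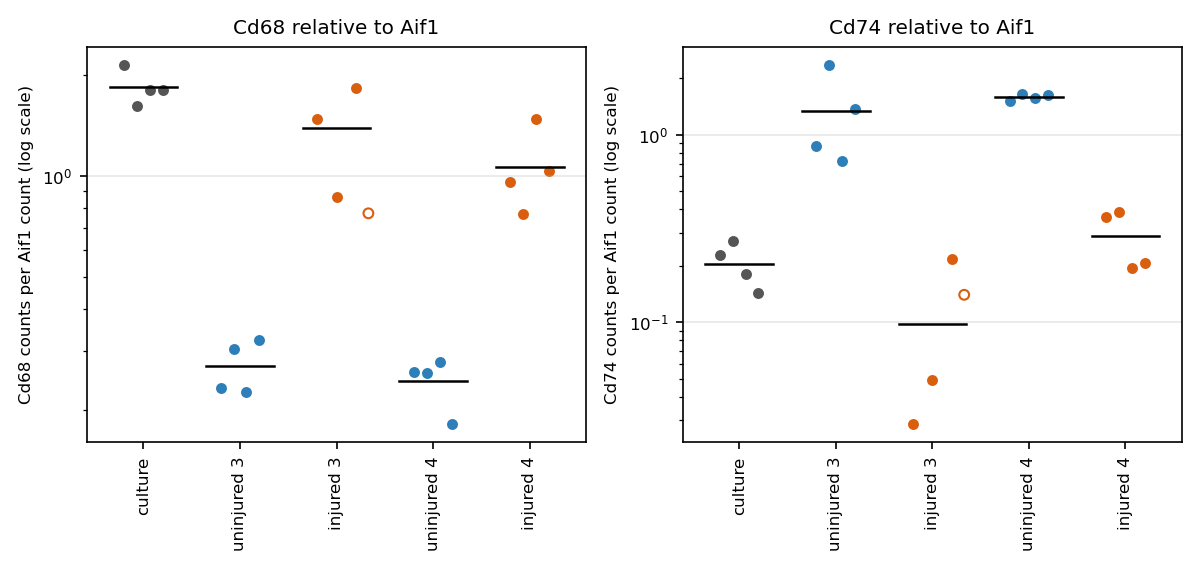
Counts of Cd68 (left) and Cd74 (right) per count of Aif1 in each library of culture and of weeks 3 and 4, on log axes, with black bars for group means. The open circle is injured week 3 replicate 3, outside the mean. Uninjured libraries have at most 0.324 Cd68 counts and at least 0.726 Cd74 counts per Aif1 count.

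The likeness of the 5 genes was described by the Pearson correlation of log2 CPM over the 19 libraries of culture and of weeks 3 and 4, without injured week 3 replicate 3. The libraries share their groups, so no p is attached. By Pearson's r, Itgam and Ptprc were the closest pair (r = 0.986), and Aif1 and Itgam followed (r = 0.973). Among 12999 other genes, Itgam stood at place 50 in likeness to Ptprc, and Ptprc at place 76 in likeness to Itgam. Cd74 correlated with Itgam at 0.934, with Ptprc at 0.924 and with Aif1 at 0.89. Cd68 had the lowest Pearson values, at 0.793 with Aif1, 0.703 with Itgam, 0.639 with Ptprc and 0.495 with Cd74. Ranks gave another order. By Spearman's rho, Cd68 and Aif1 were the closest pair at 0.954, followed by Itgam and Ptprc at 0.905, Cd68 and Itgam at 0.87 and Aif1 and Itgam at 0.832. After the group means were removed, Pearson's r changed as well. Cd68 and Itgam then correlated at 0.945 and Aif1 and Cd68 at 0.785, but Ptprc with Aif1 at only 0.108 and Ptprc with Cd74 at 0.0271. Libraries within a group that were high in Itgam thus also tended to be high in Cd68, though Cd68 differed from Itgam between groups. Other genes were not ranked on this within-group measure. Among 13000 genes with a mean log2 CPM of at least 1, the gene most like Aif1 by Pearson's r was ENSRNOG00000020845 (r = 0.997), and the gene most like Cd68 was ENSRNOG00000030021 (r = 0.967). The closest genes to Itgam, Ptprc and Cd74 had r of 0.997, 0.996 and 0.988. The files do not pair these identifiers with symbols.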

How the data were processed

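Raw counts per gene for 28 libraries were deposited by the authors as 1 table without normalization. Picard, featureCounts 1.5.1, StringTie 1.3.3, STAR 2.5.1, Trim Galore 0.4.1 and FastQC 0.11.5 are named, with no role, in the submitters' processing notes, as is the mouse build GRCm38, although the identifiers are rat. Libraries were made with a stranded total RNA kit for small inputs, per the labels' protocols. No source used here states the annotation, the strand setting or how duplicate or shared reads were treated. Reads carried no molecular identifiers that the sources name, so floors for counts of 0 (3 counts of the library total) cover counting error only.

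Counts were tested with edgeR 4.0.16 in R 4.3.3 (robust quasi-likelihood F test, TMM factors, filterByExpr by group) in 1 fit of 27 libraries with a mean for each of 7 groups and 20 residual degrees of freedom. Injured week 3 replicate 3 was left out. The standard error is the size of the log2 fold change divided by the square root of F. P-values were Benjamini-Hochberg adjusted over 14282 genes in each of 14 comparisons. Alternatives were RLE factors, DESeq2 1.42.0, no filter on low counts, all 28 libraries, a fit without week 2, each library left out in turn and, added after the data were seen, fits of the compared groups alone. The pipeline was tested on simulated data.

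The 5 genes and the gene lists were chosen with earlier results of these data known. The naming rule took the 5 genes whatever their result, the genes called with the smallest adjusted p of 12 marker lists, and the genes most alike in pattern. The lists could not be run, since 0 of 47357 entries of the reference table carry an Ensembl identifier, and the most alike genes are given by identifier for Aif1 and Cd68 only. Replicate numbers follow the order of deposition.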

Additional observations from a re-analysis of the deposited data

Results flagged for a closer look

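The effect of injury (injured over uninjured, log2 fold change) differed between weeks 3 and 4 for each of the 5 genes in edgeR's test of the difference. Week 4 minus week 3 was 3.39 for Aif1, 4.16 for Itgam, 4.21 for Ptprc, 3.27 for Cd68 and 5.20 for Cd74. For Aif1, Itgam, Ptprc and Cd74 the injured week 3 libraries were low, and for Cd68 the injured week 4 libraries were high. Among 35 groups of 4 CPM values, Dixon's ratio at the 95% level set 0 libraries apart from the other 3, where chance gives about 1.75. For injured week 3 this used all 4 libraries.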

How the results depend on the processing

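Among log2 fold changes of the 5 genes refitted under the alternative settings, 372 kept their direction and side of the threshold, 12 lost a call, 6 gained one and 4 changed sign. With each library left out the numbers were 550, 11, 1 and 13. All results of the 5 genes for injured against uninjured cord at week 3, and for its difference between weeks 3 and 4, were among those kept. The fit without week 2 does not apply to comparisons with week 2, and fits of the compared groups alone were chosen after the data were seen. The number called among the 5 changed in 5 comparisons. It went from 2 to 3 in injured against uninjured cord at week 4 (no filter, without week 2, only these groups, or without uninjured week 4 replicate 4) and from 5 to 4 in injured week 2 against culture (all 28 libraries, only these groups, or without injured week 2 replicate 3). In injured week 3 against culture, 4 of 5 genes were called, 2 with all 28 libraries, and 2 to 4 with each library left out in turn (2 without injured week 3 replicate 1). In uninjured week 4 against week 3, 0 were called, and 1 (Ptprc) with no filter on low counts, without week 2 in the fit or with only these groups fitted. In uninjured week 3 against week 2, 3 were called, 1 (Itgam) with RLE factors, DESeq2, all 28 libraries or only these groups, and 1 to 3 with each library left out, the calls of Ptprc and Cd74 being lost without uninjured week 2 replicate 4 or uninjured week 3 replicate 2. The cause was not tested.

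Signs changed only for fold changes that were not called. Cd68 in uninjured week 4 against week 3 was 0.058 with RLE factors, 0.055 with DESeq2 and 0.0062 with no filter, and Aif1 in uninjured week 3 against week 2 was -0.029 with RLE factors. With each library left out, the ranges that crossed 0 were -0.63 to 0.080 for Aif1, -0.0091 to 0.41 for Itgam and -0.22 to 0.39 for Ptprc in injured against uninjured cord at week 2, and -0.16 to 0.60 for Cd74 in injured week 3 against culture. They were -0.072 to 0.42 for Aif1 and -0.16 to 0.15 for Cd68 in uninjured week 4 against week 3, -0.093 to 0.56 for Aif1 in uninjured week 3 against week 2, and -0.41 to 0.41 for Cd68 in injured week 3 against week 2.

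The background of calls moved more. Percentages are of the genes tested, whose number differs between fits. In uninjured week 4 against week 3, 75 genes were called (0.525%), 943 with DESeq2 (6.57%) and 374 with no filter (1.44%). There were 1619 without week 2 (11.9%) and 435 with only these groups (3.71%). With all 28 libraries there were 0 (edgeR, 1050 at an unadjusted p under 0.05). For injured against uninjured cord, week 2 had 481 calls, 1668 with DESeq2, 301 with all 28 libraries and 0 with only these groups (edgeR, 136 at an unadjusted p under 0.05), and week 4 had 3895, 2396 with all 28 libraries and 6269 without week 2. Injured week 3 against culture had 2744 (19.2%), 4180 with DESeq2 (27.2%), 5046 without week 2 (37.1%) and 6558 with only these groups (52%). Injured week 4 against week 3 had 3080, 5068 with DESeq2 and 5437 without week 2, and the difference of the injury effect had 2673, 4411, 4628 and, with only these groups, 4036. Against week 2, uninjured week 3 had 2903 (20.3%), 1344 with all 28 libraries (9.69%) and 495 with only these groups (4.87%). Injured week 3 against week 2 had 6386 (44.7%) and 1835 with only these groups (24.6%). Injured week 2 against culture had 6422 and 3624 with only these groups. RLE factors moved the median of all genes by 0.252 in injured against uninjured cord at week 3 and by -0.249 in the difference of the injury effect. Depth limits week 2 most, where Cd68 rests on 57 counts in injured and 29 in uninjured libraries. Per plain library total, the means of Itgam and Cd68 in injured week 4 were 308 and 281 CPM, and that of Itgam in uninjured week 3 was 358.5 CPM. No paired analysis was possible because the labels give no replicate numbers, and those used here only name the samples.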
